A study of Mus musculus with 10 samples.

Results

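The set described here comprised 10 genes: Plin2, Plin4, Plin5, Cidea, Cideb, Cidec, G0s2, Pnpla2, Hilpda and Lpin1. Their products act at lipid droplets in the cell or set the pace at which the stored fat is broken down. Lpin1 is the exception, since its product makes the diacylglycerol for new triglyceride. The members were taken by name from the known biology of the droplet and made up 10 of the 21939 genes in the table of counts. Of these, 9 passed the minimum of 10 counts summed over all libraries, and Cidea, with 7 counts in all, did not.

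Male mice of 8 to 9 weeks were given AAV8Cre by injection, and RNA of their hepatocytes was measured 12 days later. Control mice were C57BL6/j without floxed alleles, Nrf2 KO mice came from Nrf2 flox/flox animals, p65 KO mice from p65 flox/flox animals, and the double knockouts (DKO) from Nrf2:p65 double floxed animals. The paper gives the floxed mice the same genetic background as the controls. There were 3 control, 2 Nrf2 KO, 2 p65 KO and 3 DKO libraries, each from 1 mouse, and the control mice received the same virus. Mice fed freely, and injection and collection both took place in the morning. Cre was driven by the thyroxine-binding globulin promoter, so deletion was meant for hepatocytes alone. The cells were enriched by Liberase perfusion, low speed centrifugation and Percoll, not sorted, and other liver cells could remain.

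A hepatocyte stores triglyceride in droplets bounded by a single layer of phospholipid, on which perilipins sit and limit the access of lipases. CIDE proteins join droplets together, and Cideb also loads lipid onto very low density lipoprotein. Adipose triglyceride lipase, encoded by Pnpla2, takes the first fatty acid off the triglyceride, and G0s2 and Hilpda encode small inhibitors of it, whereas lipin 1 makes the diacylglycerol for new triglyceride and also acts in the nucleus as a coactivator.

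Values per library are normalized counts, meaning estimated counts divided by the library's TMM-scaled total and brought to a common size. Library totals ran from 33707165 to 49897382 counts, with a median of 37043490.5. A gene is said to have risen, fallen or changed where the edgeR quasi-likelihood test gave an adjusted p of at most 0.05 over the 13641 genes tested, and a change of at least 2-fold is counted apart.

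The targeted genes were read first. Nfe2l2, which encodes Nrf2, had 2318, 1991 and 1990 normalized counts in control, 4739 and 5005 in Nrf2 KO, 1993 and 1997 in p65 KO, and 4111, 3434 and 5240 in DKO. Every library with floxed Nrf2 lay above every other library. The total rose by a log2 fold change of 1.21 in Nrf2 KO (adjusted p = 0.00488 with edgeR, lost without Nrf2 KO 2) and 1.02 in DKO (adjusted p = 0.00347). Rela, which encodes p65, had 1221, 1276 and 1269 in control against 1183 and 1209 in p65 KO and 1488, 1241 and 1034 in DKO, with log2 fold changes of -0.07 (adjusted p = 0.765) and 0.00 (adjusted p = 0.998). The table gives 1 total per gene, in which deleted exons are not separate from retained ones, so these totals do not check the labels. The paper reports efficient knockout of both genes in hepatocytes by RT-qPCR and Western blot. It also reports lower Gclc, Nqo1 and Saa3 by RT-qPCR in the respective knockouts.

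Markers of the cell types of liver were summed in each library. The 5 hepatocyte markers, of which Alb was the most abundant, summed to between 3375540 and 5387030 normalized counts in every library, none was at 0, and 1 of them, Cps1, rose in p65 KO and in DKO (1 of 5 each; chosen after its values were seen; lost in p65 KO with a replicate block, with only the genotypes compared and without any 1 library other than control 3 or DKO 1, and lost in DKO with only the genotypes compared or without control 1, control 2 or DKO 2). The 12 markers of Kupffer cells and macrophages, led by Cd5l, summed to 428, 1068 and 818 in control, 916 and 308 in Nrf2 KO, 6491 and 4814 in p65 KO, and 3195, 2246 and 1833 in DKO. All p65 KO and DKO libraries lay above all control and Nrf2 KO libraries. In p65 KO 12 of 12 rose, with Cd5l at a log2 fold change of 3.32 (adjusted p = 0.00131 with edgeR), C1qa at 2.77, C1qb at 2.83 and C1qc at 3.15, these 4 in all alternatives, and 7 left without p65 KO 1. In DKO 6 of 12 rose, among them Cd5l (1.80), C1qa (1.80), C1qb (1.66) and C1qc (1.98), a count that was 0 without control 1 or DKO 1, 1 without control 3, 2 with a replicate block, 3 without control 2 or DKO 2 and 9 by DESeq2, with 12 at an unadjusted p under 0.05. In Nrf2 KO 0 of 12 changed by edgeR, with 0 at an unadjusted p under 0.05 and 0 by DESeq2 or limma. Of the 12, Cd5l alone differed between DKO and a single knockout by edgeR. It was lower in DKO than in p65 KO (-1.53, adjusted p = 0.0484) and higher than in Nrf2 KO (2.43, adjusted p = 0.0437). Neither call passed with a replicate block or with limma at the smaller pseudocount, among other alternatives.

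The 8 stellate cell markers, led by Dcn, summed to 197, 209 and 409 in control, 311 and 183 in Nrf2 KO, 1999 and 1969 in p65 KO, and 363, 954 and 374 in DKO. Of them 6 rose in p65 KO, with the lowest adjusted p at Dcn (log2 fold change 3.63), Colec11 (3.16), Rgs5 (2.76) and Col1a1 (8.27, not passed without p65 KO 1). The 95% interval of Col1a1 was wide, from 5.13 to 11.4 with an SE of 1.38, so the size of its rise was poorly fixed. In DKO 1 rose, Dcn (log2 fold change 1.68, adjusted p = 0.0394 with edgeR). It did not pass with a replicate block, with only the genotypes compared or without control 1, control 2, DKO 2 or either p65 KO library. In DKO 2 rose by DESeq2, with no filter or without DKO 1, and 5 stood at an unadjusted p under 0.05. Between DKO and p65 KO 1 fell, Dcn (-1.94, adjusted p = 0.0312 with edgeR), and 0 rose. This call did not pass with a replicate block, with only the genotypes compared or without DKO 1, DKO 3 or either p65 KO library. The 7 markers of sinusoidal endothelial cells, led by Clec4g, summed to 573, 999 and 1237 in control, 1417 and 732 in Nrf2 KO, 3954 and 2780 in p65 KO, and 1737, 2077 and 1459 in DKO. In p65 KO 7 of 7 rose, with the lowest adjusted p at Lyve1 (log2 fold change 2.66), Fcgr2b (1.85), Kdr (1.81) and Clec4g (1.91). The calls other than that on Lyve1 did not hold without p65 KO 1. In DKO 1 of 7 rose, Lyve1 (log2 fold change 1.67, adjusted p = 0.0340 with edgeR). It did not pass with only the genotypes compared or without control 1, control 2, DKO 1, DKO 2 or either p65 KO library. In DKO 2 rose with no filter and 3 by DESeq2, and 5 stood at an unadjusted p under 0.05. In Nrf2 KO neither list held a changed gene by edgeR, DESeq2 or limma, with 1 stellate and 0 endothelial markers at an unadjusted p under 0.05. None of these markers was at 0 in every library. The p65 KO libraries thus carried the highest signal of these 3 cell types, and the part of those cells in the changes described for the droplet genes was not tested.

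Markers of the other cell types were few or low. The 5 cholangiocyte markers, led by Sox9, summed to 151 to 444 across the libraries, the 4 of B cells (Cd79b) to at most 9.14 and the 4 of neutrophils (S100a9) to at most 18.9, with Ly6g at 0 everywhere. The 5 markers of T and NK cells, led by Nkg7, summed to between 0 and 1.97 in control, 0 and 0.808 in Nrf2 KO, 14.2 and 11.3 in p65 KO, and 9.47, 10.1 and 2.29 in DKO. The 4 erythroid markers, led by Hbb-bs, summed to 1141 in DKO 1 and to between 35.9 and 402 in the other libraries. None of the markers tested in these 5 lists changed against control by edgeR, while at an unadjusted p under 0.05 there were 1, 0 and 1 cholangiocyte markers in Nrf2 KO, p65 KO and DKO, 1 T and NK cell and 1 B cell marker in p65 KO, and 1 neutrophil and 3 erythroid markers in DKO. DESeq2 called 1 cholangiocyte marker in Nrf2 KO, 1 in DKO and 3 erythroid markers in DKO, and limma called 0, or 1 cholangiocyte marker in DKO at the larger pseudocount. Of 6 adipocyte markers, 5 had at most 3 counts in every library, Lep and Plin1 were at 0 throughout, and Lipe, the only one tested, supplied nearly all of the sums of 360 to 529 and did not pass against control by any tool. Plin1 and Lipe are also on the list of other droplet genes used further on, hepatocytes express Lipe, and none of the 10 members is on any other list. In bulk RNA, fewer cells of a type and less RNA per cell cannot be told apart.

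**Figure D1:**
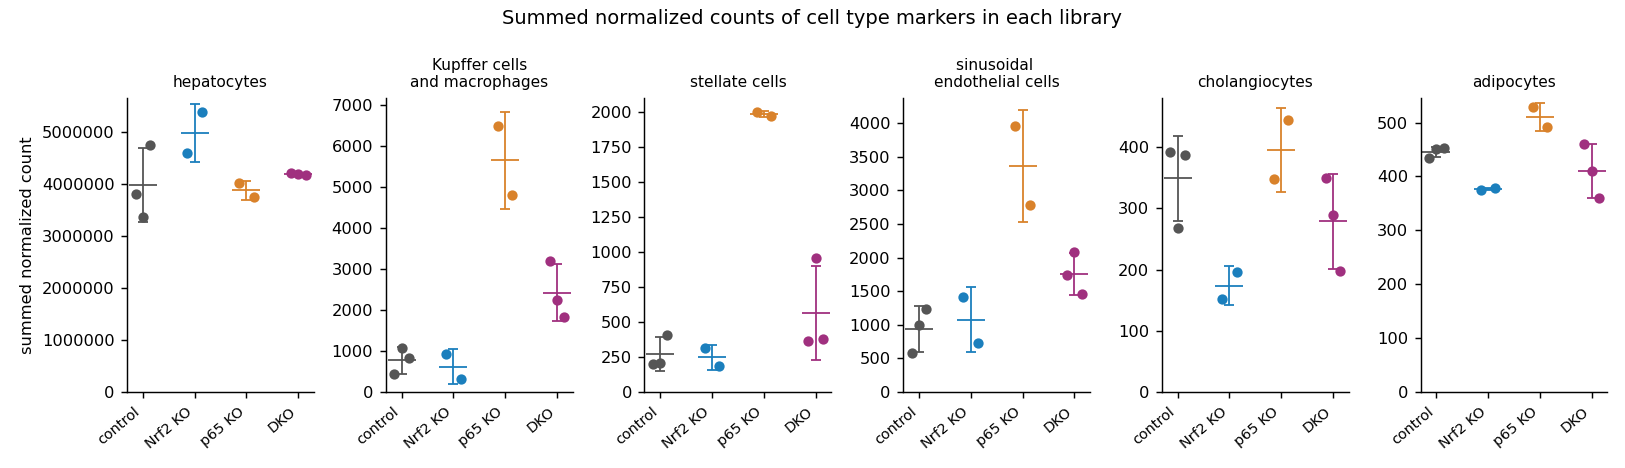
Summed normalized counts of cell type markers in each library, by genotype. The Kupffer cell and macrophage sum was 428 to 1068 in control and 4814 to 6491 in p65 KO.

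Against control, loss of Nrf2 changed 1 of the 9 tested members: Plin2 fell. Loss of p65 changed 3, with Lpin1 higher and Plin2 and Plin5 lower, and the same genes made up the 3 changed in DKO. Over all tested genes 0.726% changed in Nrf2 KO, with 0.132% higher and 0.594% lower. In p65 KO 14.9% changed, with 8.13% higher and 6.77% lower. In DKO 5.45% changed, with 2.61% higher and 2.84% lower. At 2-fold or more there were 0 members in Nrf2 KO beside 0.55% of all genes, 2 in p65 KO beside 6.59% and 2 in DKO beside 2.38%, the pair in each being Plin2 and Lpin1 by edgeR. No test of the set was made, and these 3 comparisons share the control libraries.

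The tools differed in how many members they called. At an unadjusted p under 0.05 edgeR had 4, 6 and 7 members in Nrf2 KO, p65 KO and DKO, beside 9.38%, 31.6% and 22.5% of all genes. DESeq2 called 2, 5 and 4, beside 2.34%, 19.6% and 10.7%, and limma, at either pseudocount, 1, 3 and 4, beside 0.748%, 16.2% and 5.86% at the smaller one. The 2-fold count of 0 in Nrf2 KO was 1 with DESeq2, beside 0.99% of all genes, and 0 with limma, beside 0.542% at the smaller pseudocount. That of 2 in DKO was 3, with Hilpda added, by DESeq2 (beside 3.97%) and by limma (beside 2.5% at the smaller pseudocount). Without a single library the edgeR count in Nrf2 KO was 0 in 7 of 10 cases and otherwise 1, that in p65 KO was 2 to 4 and that in DKO was 2 or 3. Those 7 libraries are named beside Plin2. The median log2 fold change over the 9 members was -0.51, -0.20 and -0.62 in those knockouts, where the median over all genes was 0.00, 0.00 and 0.02.

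Scaling to equal library totals in place of TMM moved the median over all genes against control by 0.00, 0.18 and -0.09 with loss of Nrf2, p65 or both. The calls in p65 KO went from 1109 higher and 923 lower to 1632 and 355, and those in DKO from 356 and 387 to 241 and 639. All changes given here are relative to the TMM scale, and Plin2 and Lpin1 kept direction and call in p65 KO and DKO on each scale tried.

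**Figure D2:**
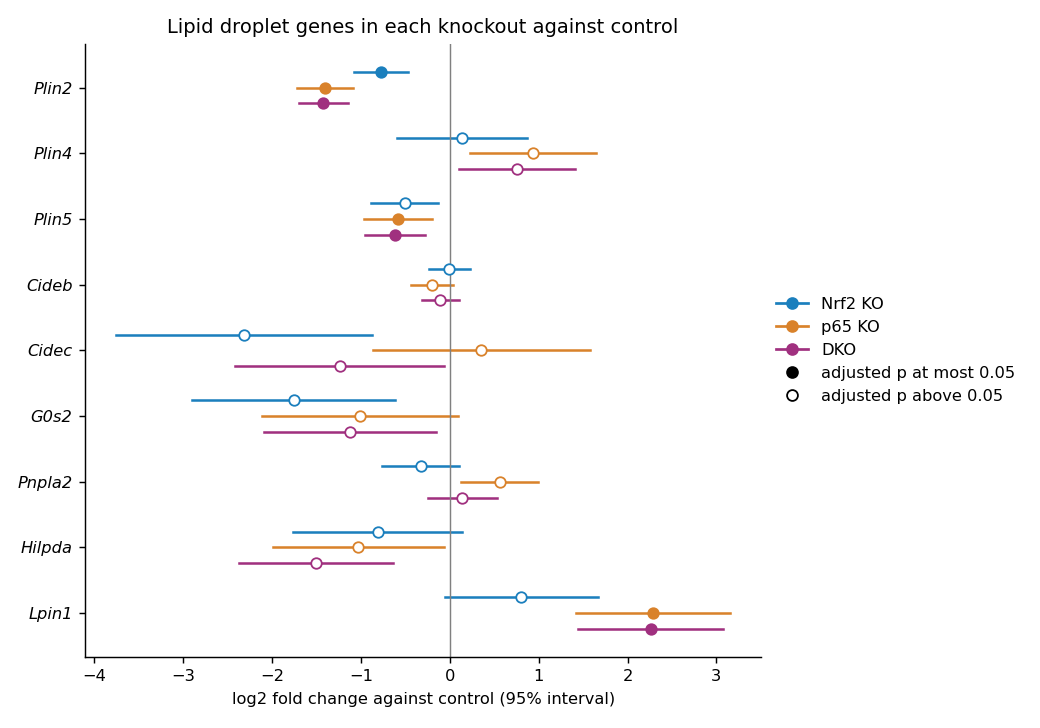
Log2 fold change of each tested member in each knockout against control, with 95% intervals, filled where the adjusted p was at most 0.05. Plin2 stood at -0.77, -1.41 and -1.42 and Lpin1 at 0.81, 2.29 and 2.26 in Nrf2 KO, p65 KO and DKO.

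Plin2, the perilipin that coats droplets in nearly all cells and the main one of hepatocytes, had 27866, 21408 and 21306 normalized counts in control, 14529 and 12994 in Nrf2 KO, 9118 and 8621 in p65 KO, and 8759, 8869 and 8717 in DKO. Every knockout library lay below every control, and the p65 KO and DKO libraries lay below both Nrf2 KO libraries and overlapped each other. Mean and SD were 23526 and 3758 in control and 8782 and 78.4 in DKO. Plin2 fell to 58.5% of control in Nrf2 KO (log2 fold change -0.77, SE 0.139, 95% interval -1.08 to -0.47, adjusted p = 0.0340 with edgeR). In p65 KO it fell to 37.7% (log2 fold change -1.41, SE 0.142, interval -1.72 to -1.09, adjusted p = 0.000636). In DKO it fell to 37.3% (log2 fold change -1.42, SE 0.124, interval -1.69 to -1.15, adjusted p = 0.000257). The p65 KO and DKO calls held in all 20 alternatives, with log2 fold changes of -1.48 to -1.23 and -1.51 to -1.28.

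The Nrf2 KO call on Plin2 was less firm. It did not pass when only the genotypes compared were fitted (adjusted p = 0.0802 with edgeR) or with a replicate block (0.0621), nor without control 1 (log2 fold change -0.63, adjusted p = 0.0676), control 2 (0.0593), Nrf2 KO 1 (0.174), Nrf2 KO 2 (0.449), p65 KO 1 (0.0588), p65 KO 2 (0.0582) or DKO 1 (0.0557). The adjusted p of Plin2 ran from 1.02e-05 with DESeq2 to 0.449, and the log2 fold change stayed between -0.86 and -0.63.

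Plin5, which coats droplets in tissues that burn fat and ties them to mitochondria, had 1492, 1054 and 1301 normalized counts in control, 911 and 892 in Nrf2 KO, 894 and 824 in p65 KO, and 670.1, 891 and 945 in DKO. All knockout libraries lay below all controls, and the knockouts overlapped each other. Plin5 fell in p65 KO (log2 fold change -0.58, SE 0.174, interval -0.96 to -0.19, adjusted p = 0.0477 with edgeR) and in DKO (log2 fold change -0.62, SE 0.154, interval -0.96 to -0.28, adjusted p = 0.0426). In Nrf2 KO the log2 fold change was -0.51 (adjusted p = 0.333).

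Both calls on Plin5 rested close to the threshold. The adjusted p in p65 KO ran from 0.0271 with DESeq2 to 0.181 with edgeR over the alternatives, and with edgeR it was above 0.05 without control 1 (0.143), control 3 (0.0973), Nrf2 KO 1 (0.0671), Nrf2 KO 2 (0.0671), p65 KO 1 (0.165), p65 KO 2 (0.181) or DKO 2 (0.0523). It was also above with DESeq2 size factors (0.0581), equal upper quartiles (0.0536), a filter on a mean of 10 (0.0524), a replicate block (0.116), only the genotypes compared (0.0548) and equal library totals (0.143, at a log2 fold change of -0.39). In DKO the adjusted p ran from 0.00831 with DESeq2 to 0.156 with edgeR, and with edgeR it was above 0.05 without control 1 (0.156), control 3 (0.101), Nrf2 KO 1 (0.0639), Nrf2 KO 2 (0.0643), p65 KO 1 (0.0583), p65 KO 2 (0.0588), DKO 1 (0.110) or DKO 2 (0.0712), as well as with equal upper quartiles (0.0528), a replicate block (0.0750) or only the genotypes compared (0.0972).

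Plin4, the perilipin best known from fat and muscle, was scarce here, at 68.5, 75.7 and 82.2 normalized counts in control, 89.0 and 77.6 in Nrf2 KO, 189 and 100.2 in p65 KO, and 118, 173 and 91.5 in DKO. All p65 KO and DKO libraries lay above the controls, with p65 KO 1 and DKO 2 highest, and Nrf2 KO overlapped control. None of the differences passed: the log2 fold change was 0.14 in Nrf2 KO (adjusted p = 0.952 with edgeR), 0.93 in p65 KO (interval 0.22 to 1.65, adjusted p = 0.0744) and 0.75 in DKO (adjusted p = 0.165). The p65 KO value passed with DESeq2 (0.0453) and without p65 KO 2 (log2 fold change 1.32, adjusted p = 0.0413), and was 0.41 (adjusted p = 0.571) without p65 KO 1. Exons of Plin4 share 3124 bases with Hdgfl2 on the other strand, and though the authors prepared stranded libraries, the strand was not checked on reads, here or for the overlaps of Cideb, G0s2 and Lpin1.

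As a share of Plin2, Plin4 and Plin5 together with Plin3, on counts per length, Plin2 made up 84.9%, 82.4% and 81.5% in control, 77.5% and 76.1% in Nrf2 KO, 68.3% and 72.4% in p65 KO, and 72.7%, 71.2% and 70.9% in DKO. No knockout library reached the lowest control. Plin3, a perilipin of nascent droplets, was named whatever its values and did not change (log2 fold changes 0.27, -0.03 and -0.24 in Nrf2 KO, p65 KO and DKO, with adjusted p = 0.810, 0.951 and 0.515 from edgeR). Plin1, the perilipin of fat cells, had 0 counts in every library.

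**Figure D3:**
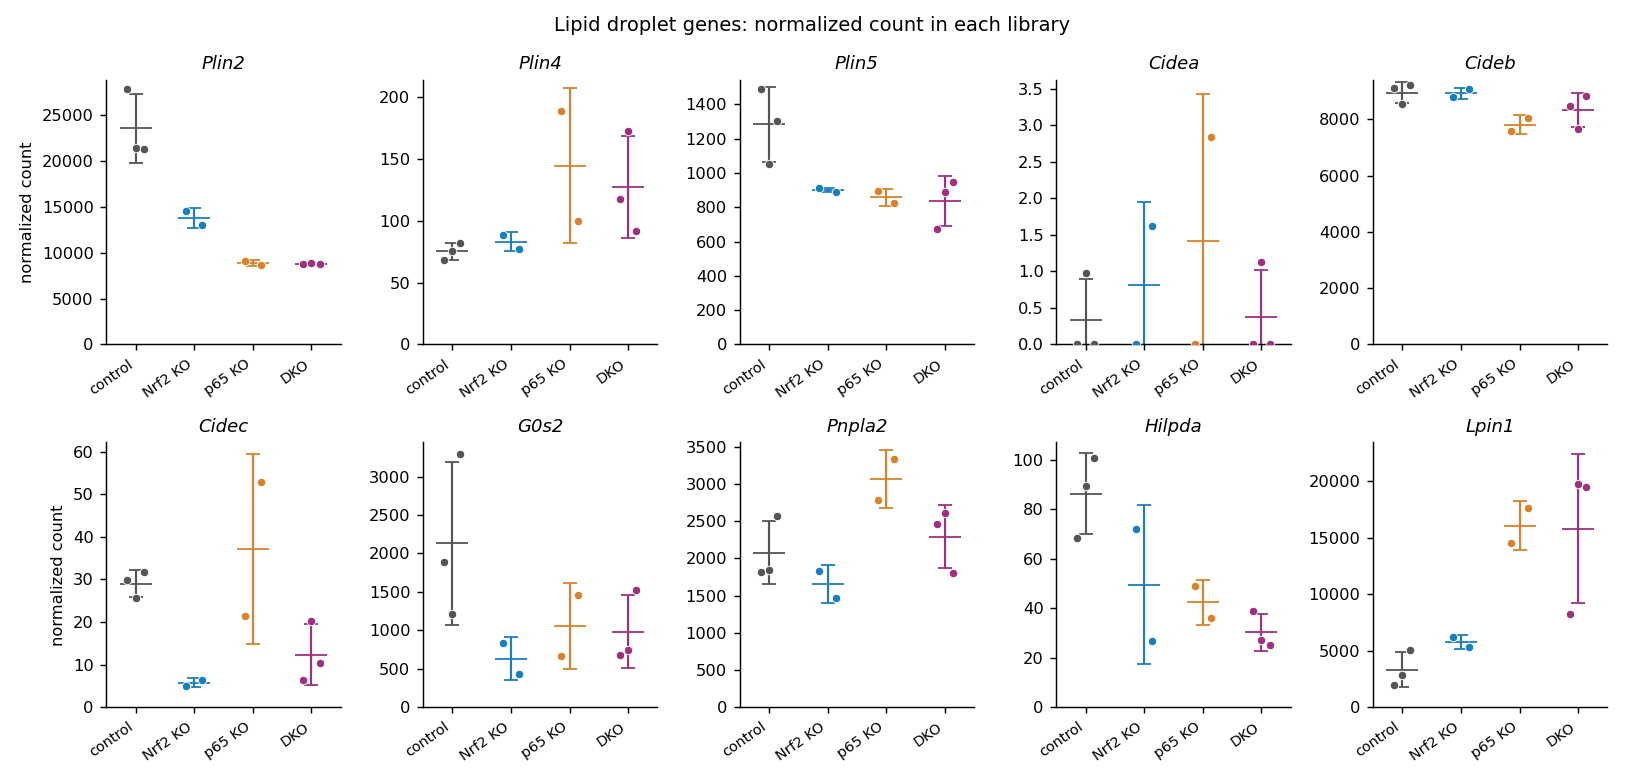
Normalized count of each member in each library, by genotype. Plin2 was 21306 to 27866 in control and 8717 to 8869 in DKO, and Lpin1 was 1982 to 5010 in control and 14503 to 17625 in p65 KO.

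Among the CIDE genes, Cideb was the one that hepatocytes carried in quantity. It had 9115, 8534 and 9203 normalized counts in control, 8789 and 9062 in Nrf2 KO, 7571 and 8045 in p65 KO, and 8467, 7651 and 8834 in DKO. Nrf2 KO lay inside the control range and DKO overlapped it, while both p65 KO libraries lay just under it. The log2 fold change was 0.00 in Nrf2 KO (interval -0.24 to 0.23, adjusted p = 1.0 with edgeR), -0.20 in p65 KO (interval -0.43 to 0.04, adjusted p = 0.233) and -0.11 in DKO (interval -0.32 to 0.10, adjusted p = 0.542). The sign of the Nrf2 KO value turned with the scaling. Cideb shares 1136 exon bases with Nop9 on the other strand.

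Cidec, which drives droplets to merge into large ones and is high in fat cells, had 29.8, 25.6 and 31.8 normalized counts in control, 4.94 and 6.47 in Nrf2 KO, 21.3 and 52.9 in p65 KO, and 6.31, 20.2 and 10.3 in DKO. Nrf2 KO and DKO lay below all controls, whereas p65 KO had 1 library below and 1 above them. At these low counts none of the differences passed. In Nrf2 KO the log2 fold change was -2.32 (SE 0.653, interval -3.76 to -0.87, adjusted p = 0.216 with edgeR, 0.0464 with DESeq2 and up to 0.808 over the alternatives). In p65 KO it was 0.36 (adjusted p = 0.703) and turned to -0.44 without p65 KO 2, and in DKO it was -1.24 (adjusted p = 0.200). Cidea, the CIDE gene of brown fat, had at most 3 counts in any library and was not tested.

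Pnpla2, which encodes the lipase itself, had 1819, 1841 and 2569 normalized counts in control, 1834 and 1473 in Nrf2 KO, 2787 and 3340 in p65 KO, and 2465, 2603 and 1808 in DKO. Both p65 KO libraries lay above all others, and Nrf2 KO and DKO overlapped control. The log2 fold change in p65 KO was 0.56 (interval 0.13 to 0.99) and did not pass (adjusted p = 0.0754 with edgeR). It passed on equal library totals (0.0367), with DESeq2 (0.0362), without control 3 (log2 fold change 0.74, adjusted p = 0.0376) and without DKO 3 (0.0495), and reached 0.300 at most. In Nrf2 KO it was -0.33 (adjusted p = 0.695) and in DKO 0.14 (adjusted p = 0.670). Abhd5, the coactivator of this lipase, was named whatever its values and did not change either (log2 fold changes -0.41, -0.71 and -0.14, adjusted p = 0.685, 0.0734 and 0.736 in Nrf2 KO, p65 KO and DKO).

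G0s2, the first of the lipase inhibitors, had 1888, 1214 and 3299 normalized counts in control, 829 and 435 in Nrf2 KO, 663 and 1454 in p65 KO, and 680, 741 and 1531 in DKO. Both Nrf2 KO libraries lay below all controls, and p65 KO and DKO each had 1 library inside the wide control range. Mean and SD in control were 2134 and 1064. The log2 fold changes of -1.76 in Nrf2 KO (adjusted p = 0.234 with edgeR), -1.01 in p65 KO (adjusted p = 0.193) and -1.12 in DKO (adjusted p = 0.165) did not pass. With 1 library left out they ran from -2.30 to -1.30 in Nrf2 KO, -1.69 to -0.55 in p65 KO and -1.58 to -0.66 in DKO. G0s2 shares 119 exon bases with Lamb3 on the other strand.

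Hilpda, the inhibitor named for its induction by low oxygen, had 68.5, 89.5 and 101 normalized counts in control, 72.2 and 26.7 in Nrf2 KO, 48.8 and 35.9 in p65 KO, and 38.9, 26.9 and 25.2 in DKO. All p65 KO and DKO libraries lay below all controls, while Nrf2 KO had 1 library inside the control range and 1 below it. In DKO, at 35.3% of control, the log2 fold change was -1.50 (SE 0.393, interval -2.37 to -0.64) and just missed the threshold (adjusted p = 0.0526 with edgeR). It passed with DESeq2 (0.00744), with limma (0.0419 and 0.0398), on equal library totals (0.0444), with no filter (0.0374), with only the genotypes compared (0.0442) and without Nrf2 KO 1 (0.0338) or Nrf2 KO 2 (0.0313), and reached 0.129 at most. In Nrf2 KO the value was -0.81 (adjusted p = 0.632) and in p65 KO -1.03 (adjusted p = 0.134). With 1 library left out the value ran from -1.69 to -0.26 in Nrf2 KO and from -1.26 to -0.82 in p65 KO.

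The ratio of each inhibitor to the lipase, on counts per length, gives their balance within a library. For G0s2 to Pnpla2 it was 0.897, 0.570 and 1.11 in control, 0.391 and 0.255 in Nrf2 KO, 0.206 and 0.376 in p65 KO, and 0.238, 0.246 and 0.731 in DKO. For Hilpda to Pnpla2 it was 0.0721, 0.0932 and 0.0752 in control, 0.0754 and 0.0347 in Nrf2 KO, 0.0335 and 0.0206 in p65 KO, and 0.0303, 0.0198 and 0.0267 in DKO. Both p65 KO libraries lay below all controls for either inhibitor, DKO 3 alone among the knockouts entered the control range of G0s2 to Pnpla2, and Nrf2 KO 1 did so for Hilpda to Pnpla2. These ratios are descriptions and were not tested.

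Lpin1, whose product turns phosphatidic acid into diacylglycerol and joins PPAR alpha as a coactivator, had the largest change that passed the test. It had 1982, 2879 and 5010 normalized counts in control, 6184 and 5321 in Nrf2 KO, 14503 and 17625 in p65 KO, and 8194, 19725 and 19475 in DKO. All knockout libraries lay above all controls, the p65 KO and DKO libraries lay above both Nrf2 KO libraries, and DKO 1 lay well below its group. Mean and SD were 3290.4 and 1555 in control, 16064 and 2207 in p65 KO and 15798 and 6586 in DKO. Lpin1 rose 4.88-fold in p65 KO (log2 fold change 2.29, SE 0.394, adjusted p = 0.00558 with edgeR) and 4.80-fold in DKO (log2 fold change 2.26, SE 0.370, interval 1.45 to 3.08, adjusted p = 0.00791). Both calls held in all 20 alternatives, at log2 fold changes of 2.03 to 2.72 in p65 KO and 2.00 to 2.70 in DKO. In Nrf2 KO the value was 0.81 (interval -0.06 to 1.67) and did not pass (adjusted p = 0.584). Lpin1 shares 531 exon bases with Ntsr2 on the other strand.

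Levels of different genes are compared only per length, as TMM-scaled CPM per kilobase of exon. In control Cideb stood highest at 139 (SD 5.65) and Plin2 next at 79.5 (SD 12.7). Pnpla2 at 13.7 (SD 2.82), G0s2 at 12.2 (SD 6.06) and Plin5 at 10.9 (SD 1.86) did not differ beyond their spread, and Lpin1 followed at 7.18 (SD 3.39), within the spread of G0s2. Hilpda at 1.09 (SD 0.208), Plin4 at 0.245 (SD 0.0223) and Cidec at 0.244 (SD 0.0266) came far lower, the last pair alike, and Cidea was at 0.00380. With the longest transcript of each gene in place of all its exons, Plin2 at 167 (SD 26.7) and Cideb at 166 (SD 6.76) were level.

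In Nrf2 KO Cideb stood at 139 and Plin2 at 46.5, ahead of Lpin1 at 12.6 and Pnpla2 at 10.9. In p65 KO Cideb stood at 121, Lpin1 at 35.1 (31.7 to 38.5 between libraries), Plin2 between 29.1 and 30.8, and Pnpla2 at 20.2. In DKO Cideb was at 129, Lpin1 at 34.5 (17.9 to 43.1) and Plin2 at 29.7. With the longest transcripts Plin2 was at 63.1 (61.3 to 64.8) and Lpin1 at 58.8 (53.1 to 64.5) in p65 KO, and at 62.4 and 57.9 (up to 72.2) in DKO, where the libraries overlapped, so these levels do not place either gene above the other in p65 KO or DKO.

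Between DKO and p65 KO 0 of 9 members changed by edgeR, where 4.11% of all genes did. At an unadjusted p under 0.05 there was 1, Cidec, beside 22.5% of all genes. Its log2 fold change was -1.59 (adjusted p = 0.140 with edgeR), and ran from -2.15 to -0.80 with 1 library left out. DESeq2 called 0 members, beside 9.46% of all genes, and limma 0, beside 4.41% or 6.04% by pseudocount. Plin2 differed by -0.01 (interval -0.31 to 0.28, adjusted p = 0.962) and Lpin1 by -0.02 (adjusted p = 0.978). On equal library totals the median over all genes moved by -0.27 in this comparison, and the calls over all genes went from 280 higher and 281 lower to 135 and 1618. The median over members was -0.11 and that over all genes 0.00.

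Between DKO and Nrf2 KO 0 of 9 members changed by edgeR, beside 0.513% of all genes. Those at an unadjusted p under 0.05 were 3, namely Lpin1, Pnpla2 and Plin2, beside 14.4% of all genes. DESeq2 called 1 (beside 3.65%) and limma 1 or 0 by pseudocount (beside 0.77% or 0.667%), in each case Plin2. The log2 fold change of Lpin1 was 1.46 (interval 0.54 to 2.37, adjusted p = 0.159). That of Plin2 was -0.65 (interval -0.94 to -0.35, adjusted p = 0.0719 with edgeR, from 0.00112 with DESeq2 to 0.348), and with edgeR it passed on equal library totals (adjusted p = 0.0390), with no filter (0.0430) and without control 1 (0.0306). The median over members was 0.47 and that over all genes 0.01, and on equal library totals the calls over all genes went from 44 higher and 26 lower to 40 and 43, with the median moved by -0.10.

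The interaction term asked whether loss of Nrf2 had the same effect with and without p65. By edgeR 0 of 9 members changed, beside 0.469% of all genes, with 2 at an unadjusted p under 0.05 (G0s2 and Plin2, beside 13.8%). DESeq2 called 1 (Plin2, adjusted p = 0.0113, beside 2.93%) and limma 0, beside 0.528% or 0.572% by pseudocount. For Plin2 the term was 0.76 (SE 0.194, interval 0.33 to 1.19, adjusted p = 0.130, up to 0.416 over the alternatives) and for G0s2 1.65 (adjusted p = 0.337). For Lpin1 it was -0.83 (interval -2.05 to 0.39, adjusted p = 0.529) and for Plin5 0.47 (adjusted p = 0.418). A different effect of Nrf2 loss by p65 state was thus not shown for any member by edgeR or limma. With simulated counts the edgeR fit found 28% of log2 changes of 1 on this term, so a term of that size could be missed. The median over members was 0.34 and that over all genes 0.01, and equal library totals moved the latter by -0.27 and the calls from 36 higher and 28 lower to 27 and 113.

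The genes whose log2 normalized counts over the 10 libraries followed Plin2 most closely, among 10184 compared, were Crot (Pearson r = 0.977), Rtf2 (0.973) and Btd (0.967). Crot, a carnitine acyltransferase of peroxisomes, fell by a log2 fold change of -1.41 in p65 KO (adjusted p = 0.00209 with edgeR) and -1.33 in DKO (adjusted p = 0.00189). Those closest to Lpin1 were Rbm14 (Pearson r = 0.970), Mt2 (0.961) and Gpt2 (0.960). Mt2, a metallothionein, rose by 3.03 in p65 KO (adjusted p = 0.00345) and 2.11 in DKO (adjusted p = 0.0220). The libraries share genotype and cell composition, so these r values describe likeness only.

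Of 25 other droplet and lipase genes 24 were tested. In Nrf2 KO 1 fell, Ces1d, a carboxylesterase that hydrolyses triglyceride for lipoprotein assembly (log2 fold change -1.18, adjusted p = 0.0327 with edgeR, not passed with a replicate block or without control 1, control 2, either Nrf2 KO or either p65 KO library, while 2 genes fell with no filter, with only the genotypes compared or without DKO 3, 3 fell by DESeq2 and 9 stood at an unadjusted p under 0.05). In p65 KO 1 rose (Pcyt1a, 0.47) and 4 fell (Lipa, -0.70, the acid lipase of lysosomes; Hsd17b11, -0.38; Ces1d, -0.71; Spart, -0.83), and in DKO 5 fell (Lipa, -0.52; Fitm1, -1.66, not passed without control 1; Hsd17b11, -0.62; Ces1d, -1.59; Spart, -0.58). Pcyt1a, Lipa, Hsd17b11 and Spart lie outside the naming rule and were chosen after their values were seen. Of the 5 in p65 KO, 3 were left on equal library totals, 2 with a replicate block or without control 1, control 3 or p65 KO 2, and 1 without p65 KO 1. Of the 5 in DKO, 2 were left without control 1 and 3 without control 2, control 3, DKO 1 or DKO 2 (with 1 other gene higher in the last case) or with only the genotypes compared. Between DKO and p65 KO 2 fell, Fitm1 (-1.49, adjusted p = 0.0341 with edgeR) and Ces1d (-0.88, adjusted p = 0.0376). Neither passed with a replicate block, with only the genotypes compared or without either p65 KO library, DKO 1 or DKO 2. Ces1d was lost without control 1 or control 2 as well. Medians against control were -0.13, -0.21 and -0.15 in Nrf2 KO, p65 KO and DKO.

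Of 19 genes of triglyceride synthesis, 1 fell in Nrf2 KO, 2 rose and 5 fell in p65 KO, and 3 fell in DKO. Gpat3, which starts glycerolipid synthesis, fell in Nrf2 KO (log2 fold change -2.14, adjusted p = 0.0241 with edgeR, not passed without control 1, control 2 or either Nrf2 KO library, while 2 genes fell with only the genotypes compared or without either p65 KO library, 1 other rose with a replicate block, and by DESeq2 1 rose and 3 fell). Fabp2, a fatty acid binding protein, fell in p65 KO (-1.44, adjusted p = 0.00254) and DKO (-1.46, adjusted p = 0.00179) in all alternatives. Dgat2, which makes the final step to triglyceride, rose in p65 KO (0.85, adjusted p = 0.0138, not passed without p65 KO 1) and stood at 0.72 in Nrf2 KO (adjusted p = 0.143) and 0.53 in DKO (adjusted p = 0.0910). Agpat1 (0.74) rose with Dgat2 in p65 KO, Agpat2 (-0.99), Fabp1 (-0.81), Acsl1 (-0.63) and Acsl5 (-0.62) were the others that fell there, and Fabp1 (-0.64) and Acsl1 (-0.71) did in DKO, all of them named after their values were seen. Of the 7 calls in p65 KO, 4 were left without control 1 and 1 without p65 KO 1, and of the 3 in DKO, 1 without control 1, DKO 1 (with 1 other gene lower) or DKO 2, where DESeq2 called 5. Medians were -0.04, -0.21 and -0.04.

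Of 17 transcription factors of lipid storage, 0 changed in Nrf2 KO by edgeR (3 at an unadjusted p under 0.05, 2 by DESeq2, 1 or 0 by limma), 6 rose in p65 KO and 2 rose in DKO. Srebf1, the factor of fatty acid synthesis genes, rose in p65 KO (log2 fold change 1.08, adjusted p = 0.0210, not passed without control 1, control 3 or either p65 KO library) and DKO (1.39, adjusted p = 0.0103, not passed without control 1). Ppara, the fatty acid receptor that drives fat oxidation, stood at -0.07 in Nrf2 KO (adjusted p = 0.973), rose in p65 KO (0.88, adjusted p = 0.0393, not passed without control 1, control 2, p65 KO 1 or either Nrf2 KO library) and stood at -0.28 in DKO (adjusted p = 0.504). Cebpa followed with 0.06 (adjusted p = 0.970), a rise of 0.71 in p65 KO (adjusted p = 0.0277, not passed without any 1 of the control or p65 KO libraries) and -0.08 in DKO (adjusted p = 0.804). Pparg did not change (-0.60, 0.38 and -0.89, adjusted p = 0.810, 0.628 and 0.274). Ppargc1b, a coactivator, rose in p65 KO (1.11, adjusted p = 0.0482, not passed with limma or a replicate block or without any 1 of the controls, p65 KO 1, DKO 2 or DKO 3) and DKO (1.21, adjusted p = 0.0462, not passed on equal library totals, with a replicate block or without any 1 of the control or DKO libraries).

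None of the calls on these factors outlasted all alternatives. Of the 6 in p65 KO, 0 were left without control 1 or p65 KO 1, 1 without control 2, 2 with 1 further gene lower without control 3, and 2 with 1 further gene higher without p65 KO 2. Of the 2 in DKO, 0 were left without control 1, and 1 was left with a replicate block, on equal library totals or without control 2, control 3 or any 1 of the DKO libraries, with 1 further gene lower on equal totals or without DKO 3 and 1 further gene higher without DKO 1. Between DKO and p65 KO 3 fell (Ppara, log2 fold change -1.16, adjusted p = 0.0339 with edgeR; Cebpa, -0.79, adjusted p = 0.0395; and Hnf4a, chosen after its values were seen). None of these passed with only the genotypes compared, without either p65 KO library or without DKO 1, and Ppara was lost without DKO 3 as well, Cebpa with a replicate block and without any 1 of the controls or DKO 2. Medians against control were -0.05, 0.38 and -0.09 in Nrf2 KO, p65 KO and DKO.

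Of 17 PPAR target genes none rose, and 3, 11 and 10 fell with loss of Nrf2, p65 or both. Medians were -1.40, -0.96 and -1.31, against 0.00, 0.00 and 0.02 over all genes. Vnn1, a pantetheinase, fell in each knockout (log2 fold changes -1.86, -2.11 and -2.56, adjusted p = 0.00201, 0.000636 and 9.04e-05 with edgeR, the first not passed without Nrf2 KO 2), as did Ehhadh, an enzyme of peroxisomal oxidation (-1.40, -1.88 and -1.73, adjusted p = 0.0427, 0.00268 and 0.00304, the first not passed with a replicate block or without any 1 of the control, Nrf2 KO or p65 KO libraries). Pdk4, which shuts off glucose oxidation, fell in p65 KO (-4.18, adjusted p = 0.00232) and DKO (-3.04, adjusted p = 0.00523) and stood at -1.55 in Nrf2 KO (adjusted p = 0.274).

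Fgf21, the hormone of fasted liver, had 394, 248 and 273 normalized counts in control, 117 and 88.1 in Nrf2 KO, 366 and 226 in p65 KO, and 22.1, 15.7 and 25.2 in DKO. The p65 KO libraries overlapped control, Nrf2 KO lay below it and DKO below all others. Fgf21 fell in Nrf2 KO (log2 fold change -1.58, adjusted p = 0.0411 with edgeR, not passed without DKO 1 or any 1 of the control or Nrf2 KO libraries) and in DKO (-3.85, adjusted p = 0.000117), with -0.04 in p65 KO (adjusted p = 0.933), and DKO lay below p65 KO (-3.81, adjusted p = 0.000279) and Nrf2 KO (-2.28, adjusted p = 0.0111, not passed with only the genotypes compared or without Nrf2 KO 1).

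The PPAR target calls kept in every alternative were 0 of 3 in Nrf2 KO, 4 of 11 in p65 KO (Ehhadh, Pdk4, Vnn1 and Acaa1b, a thiolase of peroxisomes, at a log2 fold change of -1.67 and adjusted p = 0.00333 with edgeR) and 5 of 10 in DKO (those 4 and Fgf21). In Nrf2 KO the count was 1 without control 1, control 2, control 3 or Nrf2 KO 1, 0 without Nrf2 KO 2, 6 without DKO 3, 5 with no filter, 7 with only the genotypes compared and 9 with DESeq2. In p65 KO it was 6 without control 1, 4 without p65 KO 1 and 5 without p65 KO 2, and in DKO 6 without control 1 or DKO 2. On the interaction term 0 changed by edgeR, with 14 at an unadjusted p under 0.05, 6 by DESeq2 and 0 by limma.

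Among 16 hypoxia targets, of which 15 were tested and Car9 was not, 0 changed in Nrf2 KO by edgeR (1 at an unadjusted p under 0.05, 1 by DESeq2, 0 by limma). Pfkfb3, a switch of glycolysis, rose in p65 KO (log2 fold change 2.07, adjusted p = 0.00854, not passed without p65 KO 2) and DKO (2.18, adjusted p = 0.00965, not passed without control 1). Ndrg1 fell in p65 KO (-2.08, adjusted p = 0.0151, not passed without p65 KO 2) and DKO (-1.86, adjusted p = 0.0222, not passed without control 1, control 2, DKO 1 or DKO 2), and Slc2a1, a glucose transporter, fell in DKO (-1.15, adjusted p = 0.00791). That made 1 higher and 1 lower in p65 KO, 0 without p65 KO 2, and 1 higher and 2 lower in DKO, 1 in all without control 1 and 2 in all without control 2 or DKO 2. Between DKO and p65 KO 1 fell, Slc2a1 (-1.05, adjusted p = 0.0233 with edgeR), and 0 rose. It did not pass with a replicate block, with only the genotypes compared or without DKO 1 or either p65 KO library. Medians against control were -0.03, -0.11 and -0.13.

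Of 17 clock genes, 11 rose and 4 fell in p65 KO, 7 rose and 3 fell in DKO, and in Nrf2 KO 0 changed by edgeR (4 at an unadjusted p under 0.05, 0 by DESeq2 or limma). Medians were 1.24, 0.78 and 0.34. Bmal1, the activator of the clock, had 758, 1130 and 498 normalized counts in control, 700 and 323 in Nrf2 KO, 30.5 and 21.7 in p65 KO, and 270, 132 and 130 in DKO. The p65 KO libraries lay below all others and DKO below the rest. Bmal1 fell by -4.93 in p65 KO (adjusted p = 0.000914 with edgeR) and -2.16 in DKO (adjusted p = 0.0121). Per2, a repressor of the clock, rose by 2.99 in p65 KO (adjusted p = 0.000636) and 2.18 in DKO (adjusted p = 0.00171). Its relative Per3 rose by 4.19 in p65 KO (adjusted p = 0.00198) and 2.98 in DKO (adjusted p = 0.0111, not passed without control 1). Clock fell by -1.48 in p65 KO (adjusted p = 0.00144 with edgeR) and -0.66 in DKO (adjusted p = 0.0329, not passed with a replicate block or without control 1, control 2, DKO 1 or DKO 3). Per1 rose by 2.36 in p65 KO (adjusted p = 0.0124 with edgeR, not passed without control 1 or p65 KO 1) and 2.00 in DKO (adjusted p = 0.0301, not passed with only the genotypes compared, with limma at the smaller pseudocount or without control 1, control 2, DKO 2 or DKO 3).

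Of the 15 clock calls in p65 KO, 10 were left without control 1 and 9 without p65 KO 1. Of the 10 in DKO, 2 were left without control 1, 3 without control 2, 4 without DKO 3 and 6 without DKO 2, 6 passed with only the genotypes compared and 5 or 6 with limma, and Bmal1 and Per2 were the pair kept in every alternative. Between DKO and p65 KO 2 rose and 0 fell. These were Bmal1 (2.77, adjusted p = 0.0233 with edgeR, not passed without DKO 1 or either p65 KO library) and Clock (0.82, adjusted p = 0.0341). The Clock call did not pass on equal library totals, with only the genotypes compared, or without DKO 1, DKO 2 or either p65 KO library. The exact hour of collection for each mouse is not in the labels. The part of the time of day in the droplet genes was not tested.

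Of 12 stress response genes of cell isolation, 11 could be matched. By edgeR 0 changed in Nrf2 KO (0 at an unadjusted p under 0.05, 0 by DESeq2 and limma) and 0 in DKO (3, 1 and 0). In p65 KO 1 fell, Fosb (log2 fold change -3.85, adjusted p = 0.0237, not passed without control 1 or either p65 KO library, while 3 genes other than Fosb fell without p65 KO 1 and 1 rose beside it by limma at the larger pseudocount). Medians were -0.05, -0.50 and -0.61.

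**Figure D4:**
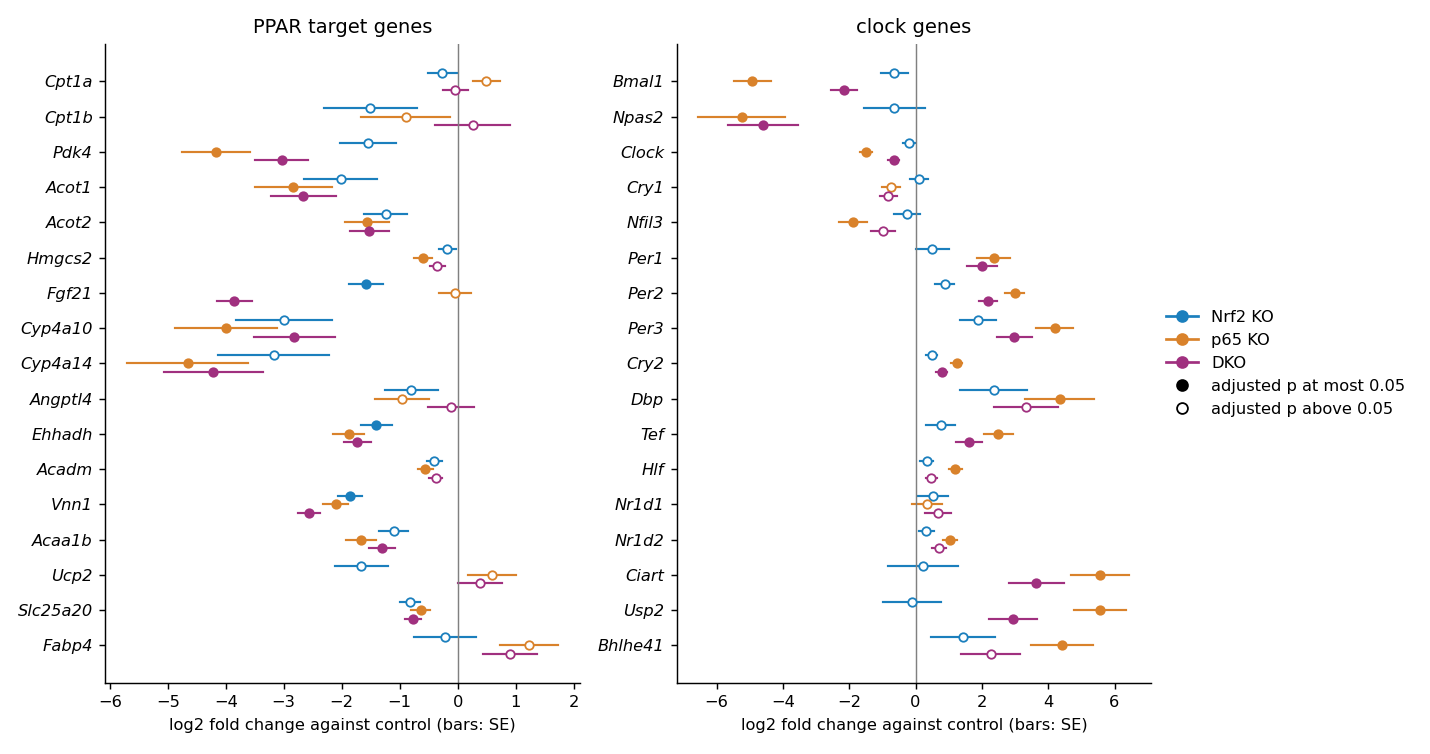
Log2 fold change against control, with SE, of the 17 PPAR target genes and the 17 clock genes, filled where the adjusted p was at most 0.05. Vnn1 stood at -1.86, -2.11 and -2.56 and Bmal1 fell by -4.93 in p65 KO.

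Promoters were read from RefSeq windows of 250 bases before to 50 after a start, given on GRCm38.p6 and matched to GRCm39, which held 12 windows for 9 members and none for Cidea. The letters AGGTCA, the element that PPAR and other nuclear receptors bind as a pair, were among several forms searched on both strands. They were found in windows of 3 members, Plin2, Lpin1 and Plin5, which edgeR called in p65 KO and DKO. DESeq2 also called Plin4 and Pnpla2 in p65 KO and Hilpda in DKO, and their windows held no AGGTCA. Such a match is common, in 16.3% of all 32851 windows, and is a description of letters and not a binding site. The share counts windows, and some members have more than 1. The stretches with 30 bases to each side were chosen with the edgeR calls known. They lie before the RefSeq starts of Plin2, Lpin1 and Plin5, written on the gene's own strand on GRCm39 with the match in capitals. All of these genes lie on the minus strand, at chr4:86588479-86588544 for Plin2 (218 bases before the start, the match on the opposite strand as TGACCT), chr12:16661006-16661071 for Lpin1 (74 bases before) and chr17:56424683-56424748 for Plin5 (170 bases before).
Plin2: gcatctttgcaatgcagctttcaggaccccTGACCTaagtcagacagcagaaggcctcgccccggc
Lpin1: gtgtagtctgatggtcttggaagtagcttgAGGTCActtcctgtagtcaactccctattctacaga
Plin5: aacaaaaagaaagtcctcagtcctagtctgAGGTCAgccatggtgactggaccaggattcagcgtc

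The other window of Plin5 held AGGTCA 14 bases after its start. The antioxidant response element of Nrf2, TGANNNNGC, matched windows of 3 members (Pnpla2, Cideb and Plin5) and 41.3% of all windows, and the kappa B core bound by p65, GGNNNTTCC, matched 3 (Hilpda, Pnpla2 and Plin5) and 18.5%. The E-box of clock factors, CACGTG, matched 1 member, Plin2, and 7.15% of windows. The hypoxia element matched 2 members as ACGTG (Plin2, where it overlaps the E-box, and Hilpda; 19.6% of windows) and 6 as GCGTG (32.4% of windows). The RefSeq starts used for Plin2, Lpin1 and Plin5 lie inside the spans that GENCODE gives for these genes, and so does the stretch shown for Lpin1. The presence or absence of these letters says nothing of the factor.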

How the data were processed

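Stranded mRNA libraries of mouse hepatocytes were sequenced single-end by the authors, who quantified reads with Salmon 1.10.3 on GRCm39 and deposited estimated counts per gene, whole numbers in a table named normalized whose library totals differ. The step from transcripts to genes is not described. Totals ran from 33707165 to 49897382, and 6302 of 21939 genes were 0 in every library.

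Counts were analysed with R 4.3.3 and edgeR 4.0.16 (quasi-likelihood test, TMM, summed count of at least 10, 13641 genes, Benjamini-Hochberg adjustment within a comparison) in 1 model of the 4 genotypes, without covariates, for 6 comparisons: each knockout against control, DKO against each single knockout, and the interaction. The code was tested on simulated data. Alternatives were DESeq2 1.42.0, limma 3.58.1 on log2 values with a pseudocount of 1 or 10, DESeq2 size factors, equal totals, equal upper quartiles, no filter, a mean of at least 10, a replicate block, only the genotypes compared, and each library left out. A 2-fold rule and lengths of the longest transcript were also tried. Exon lengths came from GENCODE M39, which held 21926 of the identifiers. Promoter letters were counted in RefSeq windows. Python 3.11.15, scipy 1.17.1 and matplotlib 3.10.9 were used.

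Members and lists (other droplet and lipase genes, triglyceride synthesis, transcription factors, PPAR targets, hypoxia targets, clock genes, stress response genes, targeted genes and 10 lists of cell type markers) were chosen with earlier results of these data known. Genes named were all members, both targeted genes, and of each list those at an adjusted p up to 0.05 whose log2 fold change against control reached 1 or -1, at most 4 per list and comparison by adjusted p. Cebpa, Ppara, Pparg, Abhd5, Dgat2, Plin1 and Plin3 were named whatever their values. For members past both thresholds whose normalized counts averaged 50 or more, the 3 genes of highest Pearson r over the 10 libraries, among tested genes with that mean, were named. Ddit3 was left out because 2 identifiers carry it, and protein identities were not computed because no protein sequences were at hand. Beyond the 17 PPAR targets, 1 more is not reported here.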

Additional observations from a re-analysis of the deposited data

How the results depend on the processing

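With 2 mice in a pair of genotypes, the tests borrow the spread from all 10 libraries, and a gene that did not pass is not shown to be unchanged. Replicates differed by more than counting noise (chi-square per degree of freedom 46.9 to 215 over 8 pairs). The p65 KO libraries, and for Kupffer cell and endothelial markers the DKO libraries, carried more RNA of nonparenchymal cells, and the hour of collection is not in the labels; the cause of the changes was not tested. Gene totals hide deleted exons, transcripts and protein. Over the alternatives, 989 member values kept their call and sign, 33 lost a call, 21 gained one and 28 changed sign.

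The samples share only replicate numbers. Each library's deviations from the mean log2 value of its genotype were correlated between libraries of the same number. These correlations ran from -0.232 to 0.114 over 13 pairs. In a genotype of 2 libraries the deviations mirror each other, so the values are not independent. In a fit with a replicate block, the members changed against control were 0 (Nrf2 KO), 2 (p65 KO) and 2 (DKO) (Plin2 in Nrf2 KO, log2 fold change -0.80, adjusted p = 0.0621 with edgeR, and Plin5 in p65 KO, 0.116, and in DKO, 0.0750, did not pass), and it changed no other call of a member. Over all genes the block gave 60 (Nrf2 KO), 1178 (p65 KO) and 454 (DKO) against control, 294 for DKO against p65 KO, 39 for DKO against Nrf2 KO and 53 for the interaction. It turned Plin2 for DKO against p65 KO to 0.0244 and Cideb in Nrf2 KO to 0.0291.

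By setting, members changed in Nrf2 KO were 0 with only the genotypes compared, 2 with DESeq2 and 0 at 2-fold, and those in p65 KO were 5 with DESeq2. For DKO against Nrf2 KO they were 1 on equal totals, with no filter, with DESeq2 and with limma at a pseudocount of 1, and for the interaction 1 with DESeq2. Over all genes DESeq2 called 319 in Nrf2 KO, 1462 in DKO, 1291 for DKO against p65 KO, 498 for DKO against Nrf2 KO and 400 for the interaction. With only the genotypes compared there were 417 in DKO, 116 for DKO against p65 KO and 20 for DKO against Nrf2 KO. Equal totals gave 1753 for DKO against p65 KO and 140 for the interaction, and no filter gave 149 for DKO against Nrf2 KO and 143 for the interaction. At 2-fold there were 899 in p65 KO, 325 in DKO and 243 for DKO against p65 KO. Signs turned in the log2 fold change of Plin2, DKO versus p65 KO (0.00597 on upper quartiles), in the log2 fold change of Cideb, Nrf2 KO versus control (0.000460 on equal totals, 0.00748 on upper quartiles), and, on equal totals, in Cideb at -0.18 for DKO against p65 KO and -0.18 for the interaction.

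With each library left out in turn, genes changed ran against control from 18 to 119 (Nrf2 KO), 452 to 2139 (p65 KO) and 229 to 663 (DKO), and from 85 to 610 for DKO against p65 KO, 18 to 95 for DKO against Nrf2 KO and 8 to 127 for the interaction. Members ran from 0 to 1 in Nrf2 KO and 0 to 1 for DKO against Nrf2 KO. Log2 fold changes that changed sign, none past the threshold in either direction, ran for DKO against p65 KO from -0.0545 to 0.0262 (Plin2), -0.57 to 0.35 (Plin4), -0.13 to 0.10 (Plin5), -0.57 to 0.57 (G0s2) and -0.22 to 0.29 (Lpin1). For DKO against Nrf2 KO they ran from -0.20 to 0.0333 (Plin5) and -1.24 to 0.19 (Hilpda). Against control they ran from -0.0375 to 0.0177 (Cideb, Nrf2 KO) and -0.44 to 0.86 (Cidec, p65 KO). For the interaction they ran from -0.71 to 0.21 (Plin4), -0.26 to 0.0775 (Pnpla2) and -0.22 to 1.21 (Hilpda).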
